A study of Sus scrofa with 14 samples.

Results

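Slices of pig heart kept for 12 days in static culture with tri-iodothyronine (T3) and dexamethasone (Dex), called TD, were compared with freshly cut slices, called D0. Members were taken by library name: TD-1 to TD-4 and D0-1 and D0-2 make up 6 of the 14 libraries of the series. The D0 slices were never cultured (day 0, no added hormone). The TD slices were cut from pig left ventricle like D0, electrically paced on transwell membranes in a serum-containing medium with vascular endothelial and fibroblast growth factors, and given 100 nM T3 and 1 µM Dex. The 4 Ctrl libraries came from the same paced static culture for 12 days without T3 and Dex, and were used to ask which part of the distance between TD and D0 differed between the 2 static cultures. The remaining libraries, 2 MC and 2 MT, came from slices that were also mechanically stretched, without and with T3 and Dex. In the main fit they entered only the filter on low values and the shared estimate of spread. TD differs from D0 by time in culture, medium, pacing and hormone at once, and these cannot be told apart in this comparison. The sources used here do not say which animal each library came from, so p-values measure the spread between these libraries, which may be technical.

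T3 is the active thyroid hormone. It enters cells and binds nuclear thyroid hormone receptors, and in the heart it is known for controlling the balance of myosin heavy chains and calcium pumping. Dex is a synthetic glucocorticoid that binds the glucocorticoid receptor, which moves to the nucleus and raises a set of direct targets, among them FKBP5 and TSC22D3, while repressing many inflammatory genes. Both hormones are used to mature cardiomyocytes in culture. A heart slice also holds endothelial cells, fibroblasts, pericytes and macrophages, and a change in a bulk library can reflect fewer cells of a type or less RNA per cell, which cannot be told apart.

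Expression was given as FPKM, fragments scaled to transcript length and to the mapped fragments of the library, for 13644 genes, and the 11527 genes that reached 1 FPKM in 2 or more libraries were tested on the log2(FPKM + 1) scale, which understates the change of low genes. The D0 libraries lay close together (Pearson r = 0.991 across the tested genes), whereas the 4 TD libraries split into pairs, TD-1 with TD-4 (r = 0.975) and TD-2 with TD-3 (r = 0.985), with r between 0.944 and 0.960 across the pairs. That split followed transcript length: over 9603 genes with a known length, the difference of TD-1 and TD-4 from TD-2 and TD-3 had a Spearman correlation of -0.58 with length, given as a description across genes of shared libraries. Its median was 0.66 on the log2 scale for transcripts up to 1000 bases and -0.39 for those over 8000 bases. Cytosolic ribosomal protein genes took 24.7% and 21.8% of the summed FPKM in TD-1 and TD-4, 15.5% and 14% in TD-2 and TD-3, and 13.3% and 12.9% in D0. The difference of TD from D0 had a Spearman correlation of -0.204 with length, and that of TD from Ctrl one of -0.314. Many counts are therefore also given without TD-1 and TD-4, an alternative chosen after seeing the data.

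**Figure D1:**
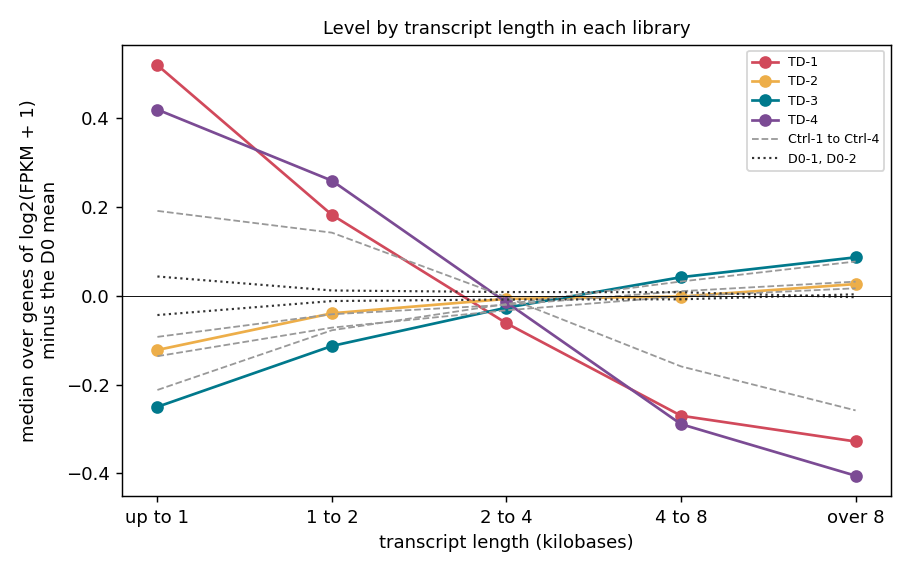
Median of log2(FPKM + 1) minus the D0 mean (vertical axis) over genes grouped by transcript length in kilobases (horizontal axis), 1 line per library. TD-1 and TD-4 run from 0.52 and 0.42 for the shortest transcripts to -0.33 and -0.41 for the longest, whereas TD-2 and TD-3 stay within 0.25 of 0.

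The labelled tissue was checked first. In D0 the ventricular light chain MYL2 stood at 332 and 285 FPKM and the troponin gene TNNT2 at 23.3 and 16.4 FPKM, but MYH7, the slow myosin heavy chain of large-animal ventricle, stood at only 1.31 and 1.32 FPKM and the calcium release channel gene RYR2 at 0.17 and 0.137 FPKM. Fibroblast genes were far higher in the same fresh libraries, with the intermediate filament gene VIM at 1605 and 1642 FPKM and the fibrillar collagen gene COL3A1 at 1942 and 1700.4 FPKM. The labelled fresh ventricle therefore carried cardiomyocyte transcripts, but several defining ones were near 0 before any culture. The extraction text of the labels speaks of stem cell-derived cardiomyocytes, whereas the other labels give pig heart. The entry for GAPDH, a common reference gene, stood at 0.56 and 0.666 FPKM in D0 and 0.223, 0.28, 0.594 and 0.464 FPKM in TD, so it was not used as a reference.

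TD differed from D0 at 1604 of the 11527 tested genes (13.9%). Of these, 578 genes were higher in TD (5.01% of those tested) and 1026 were lower (8.90%), and the median change over all tested genes was -0.02. A change of at least 1 on the log2 scale was seen in 325 of the rises and 606 of the falls. The count rested on both fresh libraries, since it was 677 without D0-1 and 727 without D0-2, where the remaining fresh library was assumed to vary like the other groups. Without TD-1 and TD-4 it was 1159 (461 higher, 698 lower). TD and D0 did not overlap in 42.4% of all tested genes and in all 1604 called ones, so a lack of overlap adds nothing to a call. Of the tested genes 246 passed the filter only through D0 and 158 only through TD, sets that overlap. Among the 11139 genes in neither set there were 560 rises and 882 falls. The shares of 5.01% and 8.90% are the background for the counts of list members below. Lists and members were chosen with earlier results of these data known, so a count above these shares is a description, not a test.

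The largest rises included genes of drug metabolism, of cytokine decoy and of the renin-angiotensin system. FMO1, a flavin monooxygenase that oxidises drugs and other nitrogen- and sulphur-containing compounds (chromosome 9, 63860957 to 63895086 in Sscrofa11.1), stood at 0.538 and 0.629 FPKM in D0 and 127, 92.7, 99.7 and 149 FPKM in TD-1 to TD-4. The TD mean was 201 times the fresh mean, the largest rise among the named genes (log2 fold change 6.20 ± 0.26, adjusted p = 2.88e-08). IL1R2, the decoy receptor that binds interleukin-1 without signalling, went from 0.837 and 0.559 to 134, 69.9, 80.7 and 134 FPKM (log2 fold change 5.90 ± 0.35, adjusted p = 3.00e-07). GPX3, a secreted glutathione peroxidase, went from 23.7 and 21.8 to 819, 690.2, 529 and 785 FPKM, the highest level reached among these genes (log2 fold change 4.88 ± 0.20, adjusted p = 2.88e-08). In all 3 genes the TD libraries lay far above both fresh ones, and TD-1 and TD-4, the short-transcript libraries, were the 2 highest in each of them. TGM3, a transglutaminase better known from skin, rose from 1.48 and 1.58 to 52.7, 88, 80.7 and 116 FPKM (log2 fold change 5.02 ± 0.24, adjusted p = 7.41e-08). The rest of the 15 largest rises, between 3.36 and 4.51 on the log2 scale, were AGT, ANPEP, CCN5, AREG, CFD, PADI1, CIDEC, MMP12, ACE, OMD and PLAC9, several of which are described with their pathways.

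The Ctrl libraries divided these rises. Both contrasts use the same TD libraries. Of the 15 genes, 9 were also higher in TD than in Ctrl and 1, AREG, was lower. Over all tested genes the shares were 1.26% and 2.22%. The 15 were picked for high values in these same TD libraries, so setting them beside those shares is not a test. Of all 578 genes that rose against D0, 114 were higher in TD than in Ctrl and 5 were lower. FMO1 stood at 2.17 to 5.2 FPKM in Ctrl and differed from TD by 4.71 ± 0.21, adjusted p = 1.40e-07. GPX3 in Ctrl was 89.3 to 116 FPKM, between D0 and TD. AREG, which encodes the EGF receptor ligand amphiregulin, was at 0.28 and 0.456 FPKM in D0, 16.3, 14, 18.8 and 17.1 FPKM in TD and 46.2, 37, 63.2 and 48.9 FPKM in Ctrl, so that the 3 groups did not overlap and TD lay between (-1.49 ± 0.16, adjusted p = 0.000226 against Ctrl). CCN5, a matricellular protein gene, rose to 22.5 to 41.4 FPKM in TD and 24.6 to 34.2 FPKM in Ctrl, and the static cultures overlapped (0.16 ± 0.25, adjusted p = 0.822).

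**Figure D2:**
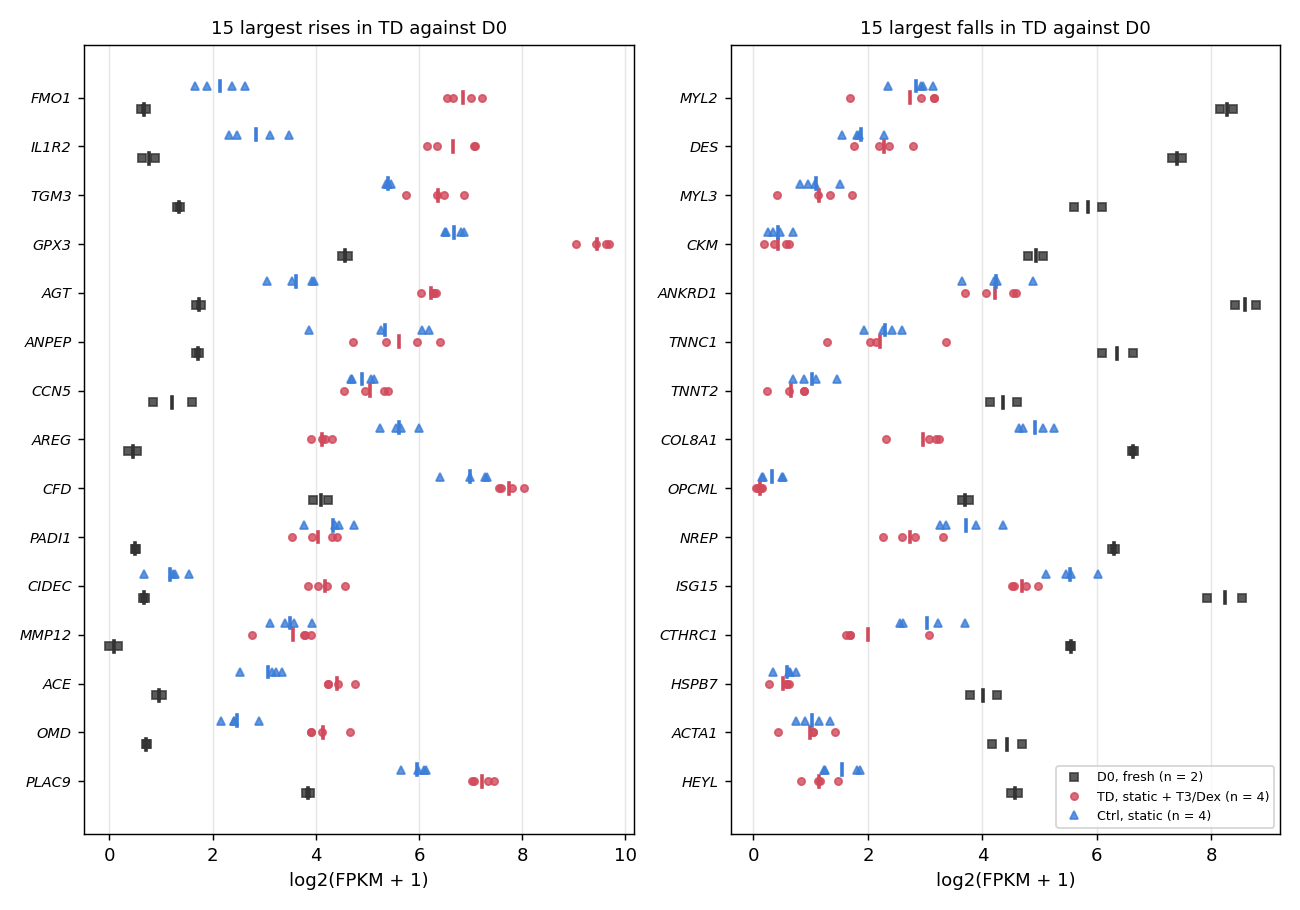
log2(FPKM + 1) (horizontal axis) of the 15 largest rises and the 15 largest falls in TD against D0 (vertical axis), 1 point per library and a bar at the group mean. The genes were chosen among those where D0 and TD do not overlap, and among the 15 falls only COL8A1 also passed the threshold in the comparison of TD with Ctrl.

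Contractile and other muscle genes made up most of the largest falls. MYL2, the regulatory light chain of ventricular myosin (chromosome 14, 32205953 to 32213848), stood at 332 and 285 FPKM in D0 and 7.95, 6.63, 2.21 and 7.95 FPKM in TD (log2 fold change -5.53 ± 0.44, adjusted p = 2.82e-06). The fresh mean was 49.9 times the TD mean, and TD-3 was the lowest of the TD libraries. DES, the intermediate filament that links myofibrils, fell from 179 and 158 to 4.16, 5.93, 2.38 and 3.57 FPKM (log2 fold change -5.13 ± 0.27, adjusted p = 1.31e-07). CKM, the muscle creatine kinase, fell from 32.2 and 26.8 to 0.534, 0.482, 0.141 and 0.285 FPKM (log2 fold change -4.49 ± 0.22, adjusted p = 7.41e-08). All 4 TD libraries were below 1 FPKM for CKM, far under both fresh ones. TNNT2 fell from 23.3 and 16.4 to 0.848, 0.836, 0.176 and 0.537 FPKM (log2 fold change -3.71 ± 0.26, adjusted p = 1.15e-06), with TD-3 again lowest. MYL3, the troponin C gene TNNC1, the skeletal alpha-actin gene ACTA1, the small heat shock protein gene HSPB7 and ANKRD1, a stretch-responsive protein of the sarcomere, changed by -4.7, -4.15, -3.45, -3.5 and -4.37 on the log2 scale.

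The promoters of MYL3, the essential light chain of ventricular myosin, and of XIRP1, an actin-binding repeat protein of the intercalated disc, are shown because each holds a motif of muscle gene control, in capitals, within the 250 bases before the outermost annotated RefSeq start of the gene in Sscrofa11.1. The window of MYL3 (chr13:29735617-29735866, minus strand) held a CArG box, the motif bound by serum response factor, which was found in 1.32% of 18891 such windows. The window of XIRP1 (chr13:23876851-23877100, minus strand) held a MEF2 motif, found in 2.56%. Among the 22 tested genes of the sarcomere list, 4 windows held a MEF2 motif (MYBPC3, MYOM1, MYOZ2 and XIRP1) and 2 held a CArG box (MYL3 and UNC45B). Both motifs read the same on either strand, and a match is a description of the letters, not a measured binding site.
MYL3: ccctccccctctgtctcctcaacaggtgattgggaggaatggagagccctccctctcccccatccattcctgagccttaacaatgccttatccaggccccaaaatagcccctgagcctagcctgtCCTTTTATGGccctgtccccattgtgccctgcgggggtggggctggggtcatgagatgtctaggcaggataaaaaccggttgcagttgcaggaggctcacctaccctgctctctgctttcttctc
XIRP1: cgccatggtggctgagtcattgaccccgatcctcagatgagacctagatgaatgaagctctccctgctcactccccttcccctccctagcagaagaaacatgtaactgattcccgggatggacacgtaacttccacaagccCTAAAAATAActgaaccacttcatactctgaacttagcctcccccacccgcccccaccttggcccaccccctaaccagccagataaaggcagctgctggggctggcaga

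Of 39 listed sarcomere and myofibril genes, 31 had an entry and 22 passed the filter. Of these 22, 17 fell, 0 rose and 5 did not pass the test, with a median change of -2.11 beside -0.02 over all genes. 4 of the 22 passed the filter only because they were expressed in D0, and among the other 18 the count was 13 lower. The falls numbered 16 or 17 with any 1 library left out and 17 without TD-1 and TD-4. MYH7 fell from 1.31 and 1.32 FPKM in D0 to at most 0.0645 FPKM in TD (log2 fold change -1.15 ± 0.20, adjusted p = 0.00176). MYH7, XIRP1, HSPB7, SRL, NKX2-5 and NPPB passed the filter only through D0, the group where they are high. XIRP1 fell from 4.29 and 3.42 to 0.127, 0.496, 0.284 and 0.127 FPKM (log2 fold change -1.95 ± 0.19, adjusted p = 1.86e-05).

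Genes of the costamere and the intercalated disc, which anchor the myofibril to the membrane and join neighbouring myocytes, split. Of 30 listed genes 24 had an entry and 19 were tested, and 9 fell, 2 rose and 8 did not pass. 5 of the 19 passed the filter only through D0 and 1 only through TD, and among the other 13 there were 4 falls and 2 rises. Without TD-1 and TD-4, 8 of the 19 fell and 1 rose. GJA1, which encodes the gap junction protein connexin 43, was among the rises, from 139.6 and 139 to 354, 251, 387 and 292 FPKM (log2 fold change 1.18 ± 0.23, adjusted p = 0.00306). All 4 TD libraries exceeded both fresh ones, while Ctrl lay higher still at 535, 492, 617 and 724 FPKM (-0.89 ± 0.18, adjusted p = 0.0161). That difference from Ctrl was lost without TD-4, without Ctrl-3, without Ctrl-4 and without TD-1 and TD-4, with adjusted p up to 0.0837. GJA1 is also expressed by fibroblasts, and which cells carried it was not tested. In the calcium handling and ion channel list, 31 of 42 genes had an entry and 19 passed the filter, 3 of them only through D0. Of the 19, 6 fell and 0 rose, and among the other 16 there were 3 falls. SLC8A1, the sodium-calcium exchanger, fell from 1.75 and 1.72 to 0.351, 0.374, 0.41 and 0.214 FPKM (log2 fold change -1.03 ± 0.17, adjusted p = 0.00108), and SRL, the sarcoplasmic reticulum protein sarcalumenin, fell from 2.51 and 2.35 to 0.178, 0.471, 0.447 and 0.466 FPKM (log2 fold change -1.31 ± 0.20, adjusted p = 0.000588). The falls in this list numbered 2 without D0-1, 3 without D0-2 and 4 without TD-1 and TD-4.

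Against static culture without the hormones, 0 of the 22 tested sarcomere genes passed by limma (3 at an unadjusted p under 0.05), and the median difference of TD from Ctrl was -0.10. For MYL2 the Ctrl libraries held 6.57, 6.79, 7.78 and 4.11 FPKM and the difference was -0.11 ± 0.36, adjusted p = 0.923. For CKM, Ctrl held 0.191 to 0.617 FPKM and the adjusted p was 0.997. The summed FPKM of the cardiomyocyte markers was 566 and 452 in D0, 4.60 to 21.3 in TD and 9.07 to 15.6 in Ctrl, and all 9 tested markers fell against D0, 3 of which passed the filter only through D0. Of the 9 markers, 6 were under 1 FPKM in all TD libraries and at least 1 FPKM in both fresh ones. The filter also counted the MC and MT libraries. What part the number of cardiomyocytes had in the contractile falls was not tested. Of 17 tested cardiac transcription factors 3 rose, 4 fell and 10 did not pass. 1 of the 17 passed the filter only through D0 and 1 only through TD, and among the other 15 there were 3 rises and 3 falls. NKX2-5 (2.38 and 2.04 FPKM in D0, 0.404, 0.375, 0 and 0 in TD), GATA4 (log2 fold change -1.24 ± 0.24, adjusted p = 0.00282), MEF2C (log2 fold change -1.2 ± 0.16, adjusted p = 0.000184) and GATA6 fell, while HEY2, a Notch-responsive repressor of the ventricle, rose from 2.13 and 2.36 to 19, 18.2, 21.3 and 22.1 FPKM (log2 fold change 2.70 ± 0.17, adjusted p = 5.10e-07). HAND2, a transcription factor of the heart tube, and KLF15, a Kruppel-like factor induced by glucocorticoids, rose too, by 1.16 and 1.57. The GATA6 call was lost without D0-2 (adjusted p = 0.101).

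Of 13 tested fetal and stress genes 3 rose, 4 fell and 6 did not pass. 2 of the 13, NPPB and MYH7, passed the filter only through D0, and among the other 11 there were 3 rises and 2 falls. NPPB, which encodes the natriuretic peptide BNP, fell from 15.6 and 10.4 to 0.552, 0.686, 0 and 0.146 FPKM (log2 fold change -3.39 ± 0.48, adjusted p = 0.000311), with TD-3 listed at 0. GDF15, a stress-induced hormone of the TGF-beta superfamily, rose from 5.93 and 8.42 to 45.3, 40.5, 51.1 and 50.2 FPKM (log2 fold change 2.56 ± 0.27, adjusted p = 3.13e-05), and SPP1, the matrix cytokine osteopontin, rose from 190.1 and 174 to 535, 408, 370.1 and 461 FPKM (log2 fold change 1.27 ± 0.22, adjusted p = 0.00159). In Ctrl GDF15 stood at 34.9 to 59.7 FPKM and overlapped TD.

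The respiratory chain is built from genes of both the mitochondrial and the nuclear genome. The 13 genes encoded in mitochondrial DNA were all lower on average in TD, with a median of -1.24, and 6 passed the test. COX2, a catalytic subunit of cytochrome c oxidase, fell from 5828 and 4697 to 2061, 1345, 874 and 1657 FPKM (log2 fold change -1.89 ± 0.37, adjusted p = 0.00341), a call lost without D0-1 (adjusted p = 0.0675). ATP8, a small subunit of ATP synthase, fell from 27.1 and 24.7 to 4.57, 3.06, 7.42 and 4.7 FPKM (log2 fold change -2.23 ± 0.32, adjusted p = 0.000341). The mitochondrially encoded genes took 13.1% and 10.9% of summed FPKM in D0 and 4.76% to 5.56% in TD, with no overlap. The count of falls was 1 without D0-1, 5 without D0-2 and 7 without TD-1 and TD-4. Of 47 nuclear genes of oxidative phosphorylation 0 passed in either direction by limma (0 also at an unadjusted p under 0.05), with a median of 0.12 that turned to -0.30 without TD-1 and TD-4. UQCRC1, a core protein of complex III, stood at 86.1 and 86.8 FPKM in D0 and 97.6, 76.4, 71.8 and 126 FPKM in TD, where TD-1 and TD-4 were the 2 highest (log2 fold change 0.07 ± 0.23, adjusted p = 0.892). In the citric acid cycle 1 of 22 tested genes changed, the mitochondrial isocitrate dehydrogenase IDH2, from 111 and 95 to 37.9, 44.8, 34.7 and 56.7 FPKM (log2 fold change -1.24 ± 0.22, adjusted p = 0.00176). Over all tested genes 13.9% were called.

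Of 20 tested muscle energy enzymes 6 fell, 1 rose and 13 did not pass, also without TD-1 and TD-4. ENO3, the muscle enolase, fell from 15.4 and 13.8 to 1.76, 2.35, 1.04 and 1.98 FPKM (log2 fold change -2.51 ± 0.34, adjusted p = 0.000224), whereas ENO2, the enolase of neurons, rose from 8.55 and 7.34 to 17.1, 25.2, 33.5 and 21.5 FPKM (log2 fold change 1.47 ± 0.28, adjusted p = 0.00269). SLC2A5, the fructose transporter, rose from 17.1 and 14.3 to 92.3, 81.9, 100.4 and 99.8 FPKM (log2 fold change 2.50 ± 0.17, adjusted p = 7.89e-07) and stood at 103 to 123 FPKM in Ctrl, a difference from TD that did not pass (-0.27 ± 0.14, adjusted p = 0.427). LPL, the lipase that frees fatty acids from circulating triglyceride, rose from 8.44 and 7.95 to 47, 44.6, 61.4 and 40.4 FPKM (log2 fold change 2.41 ± 0.22, adjusted p = 9.80e-06). SLC27A6, a fatty acid transport protein of the heart, rose from 0.1 and 0.133 to 2.16, 2.46, 2.7 and 2.45 FPKM and stayed at 0.158 to 0.429 FPKM in Ctrl, so that TD lay above both (1.40 ± 0.22, adjusted p = 0.00266 against Ctrl). CIDEC, a lipid droplet protein, showed the same order, with 0.603 and 0.559 FPKM in D0, 15.6, 13.5, 17.5 and 22.6 in TD and 0.584, 1.4, 1.33 and 1.9 in Ctrl. Over the fatty acid list 3 of 30 genes rose and 1 fell (2 and 0 without TD-1 and TD-4), and over glycolysis 2 of 20 rose and 0 fell. Of all tested genes 5.01% rose and 8.90% fell.

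Known targets of the glucocorticoid receptor were followed as a list of 44 genes, of which 34 were tested. Of the 34, 11 rose (5.01% of all tested genes did) and 4 fell (8.90%), with a median of 0.54. Without D0-1 or without D0-2 the counts were 9 higher and 1 lower, and without TD-1 and TD-4 they were 12 and 2. FKBP5, a chaperone that restrains the receptor itself, stood at 22.9 and 23 FPKM in D0 and 74.6, 79.9, 89.4 and 73.1 FPKM in TD (log2 fold change 1.74 ± 0.23, adjusted p = 0.000185). TSC22D3, the leucine zipper protein GILZ, went from 16 and 18.1 to 59.4, 55.3, 61.8 and 62.4 FPKM (log2 fold change 1.75 ± 0.15, adjusted p = 4.95e-06). DUSP1, a phosphatase that switches off MAP kinases, went from 35.1 and 34.1 to 117, 130.2, 132 and 135 FPKM (log2 fold change 1.86 ± 0.14, adjusted p = 2.11e-06). In these 3 genes, as in every gene called higher, all TD libraries lay above both fresh ones. ALOX5AP, which presents arachidonic acid for leukotriene synthesis, went from 6.87 and 6.28 to 62.1, 54, 51.5 and 82.3 FPKM (log2 fold change 3.04 ± 0.23, adjusted p = 2.11e-06). LCN2, the iron-siderophore carrier lipocalin, and ERRFI1, a feedback inhibitor of EGF receptors, rose by 3.27 and 2.29, and TD overlapped Ctrl for both (57.4 to 83.1 and 134 to 341 FPKM in Ctrl). IL1R2 and CD163 are also on this list. ZBTB16, a zinc finger transcription factor, rose by 2.37, a call lost without either fresh library (adjusted p = 0.0774 at most). The largest fall was in SPARCL1, a matricellular protein gene, from 6.58 and 7.05 to 1.13, 0.549, 1.57 and 0.459 FPKM (log2 fold change -2.06 ± 0.32, adjusted p = 0.000639).

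Against Ctrl, 7 of the 34 were higher in TD and 0 were lower, beside 1.26% and 2.22% of all genes. Of the 7, DUSP1 and PDK4 lost that call without TD-1 and TD-4. The DUSP1 difference from Ctrl (0.53, adjusted p = 0.0226 by limma) was lost in 11 of 21 alternatives, with adjusted p up to 0.417. FKBP5 was 19.9, 17.4, 31.1 and 32.6 FPKM in Ctrl (1.66 ± 0.19, adjusted p = 0.000257), with TSC22D3 at 25.1, 22.9, 25.7 and 30.8 FPKM (1.17 ± 0.12, adjusted p = 0.000136). For FKBP5 the Ctrl libraries spanned the fresh level, and TD stood above both groups. PDK4, which shuts pyruvate out of the citric acid cycle, was 42.3 and 35.6 FPKM in D0 and 28.2, 28.8, 29.6 and 19.8 FPKM in TD, a difference that did not pass (log2 fold change -0.55 ± 0.35, adjusted p = 0.382), while Ctrl was down at 7.9, 9.6, 9.43 and 12.8 FPKM. The difference of TD from Ctrl at PDK4 passed (1.34 ± 0.29, adjusted p = 0.0198) but was lost in 9 alternatives (adjusted p up to 0.125), among them rescaling to TPM and leaving out any 1 of TD-1, TD-2, TD-3, Ctrl-1, Ctrl-2 and Ctrl-3.

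The promoter of AGT, the angiotensinogen gene that rose by 4.51 in TD, is shown because it holds the half-site of the glucocorticoid receptor, AGAACA or its reverse complement TGTTCT, in capitals, within the 250 bases before its RefSeq start (chr14:59642780-59643029, plus strand, Sscrofa11.1). That half-site was found in 10.3% of the 18891 windows on either strand. Among the 34 tested genes of the glucocorticoid list 3 windows held it (8.82%), those of ADAMTS1, NR3C1 and SPARCL1, a share near that of all windows.
AGT: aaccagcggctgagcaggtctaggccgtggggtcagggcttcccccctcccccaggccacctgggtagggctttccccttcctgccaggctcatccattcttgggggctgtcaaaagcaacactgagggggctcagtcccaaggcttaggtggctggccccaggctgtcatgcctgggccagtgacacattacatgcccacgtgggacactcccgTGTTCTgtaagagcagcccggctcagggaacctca

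Of 36 genes listed for thyroid hormone response 21 were tested, and 1 rose, 3 fell and 17 did not pass, beside 5.01% and 8.90% of all tested genes. 1 of the 21, MYH7, passed the filter only through D0, and among the other 20 there were 2 falls. The list had a median of -0.32 that was 0.09 without TD-1 and TD-4, where 2 rose and 3 fell. Without D0-1 or without D0-2 there was 1 fall. TXNIP, which inhibits thioredoxin, rose from 174 and 181 to 375, 385, 401 and 304 FPKM (log2 fold change 1.03 ± 0.19, adjusted p = 0.00261). DIO3, the deiodinase that inactivates T3, was 18 and 18.8 FPKM in D0 and 33.5, 23.9, 16.6 and 29.5 FPKM in TD, which overlap (log2 fold change 0.43 ± 0.36, adjusted p = 0.521), but only 2.51, 2.71, 0.445 and 1.38 FPKM in Ctrl. TD was thus higher than Ctrl by 3.33 ± 0.29 (adjusted p = 2.88e-05), the only member of this list to pass that test. The 3 falls included COL15A1, a basement membrane collagen, which fell by 1.64, a call lost without either fresh library (adjusted p = 0.0626 at most).

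Of 21 tested endothelial markers, 20 were lower in TD and 0 higher, with a median of -1.73, and the count was 16 to 21 with any 1 library left out and 20 without TD-1 and TD-4. KDR, the main receptor of vascular endothelial growth factor, fell from 15.3 and 12.9 to 1.5, 2.08, 2 and 0.515 FPKM (log2 fold change -2.63 ± 0.29, adjusted p = 4.97e-05). CDH5, the cadherin of endothelial junctions, fell from 76.1 and 70.4 to 13.3, 18.5, 20.7 and 7.9 FPKM (log2 fold change -2.28 ± 0.28, adjusted p = 0.000129). SOX18, an endothelial transcription factor, fell from 35.7 and 34.8 to 4.66, 6.28, 9.65 and 4.75 FPKM (log2 fold change -2.35 ± 0.22, adjusted p = 9.93e-06). TD-4 was the lowest TD library for KDR and CDH5, and no TD library reached a fresh value in any of the 3. In Ctrl these 3 genes were intermediate, with KDR at 7.38, 6.13, 5.74 and 6.45 FPKM, and 12 of the 21 were lower in TD than in Ctrl, beside 2.22% of all genes. Of the 12, ERG, ESAM, ROBO4, AQP1 and NOS3 lost that call without TD-1 and TD-4. The Ctrl contrast was -1.61 ± 0.24, adjusted p = 0.00194 for KDR and -1.52 ± 0.18, adjusted p = 0.000343 for SOX18. The summed endothelial markers were 977 and 839 FPKM in D0, 202 to 303 in TD and 488 to 569 in Ctrl, with no overlap between the 3 groups, and the part of cell number in this was not tested. CCL21, the chemokine of lymphatic endothelium, fell from 13 and 18.2 to 0.667, 0.447, 0.452 and 1.32 FPKM (log2 fold change -3.28 ± 0.26, adjusted p = 2.78e-06), and RGS5, a pericyte gene, from 24.4 and 24.1 to 7.96, 5.32, 5.79 and 6.23 FPKM (log2 fold change -1.80 ± 0.22, adjusted p = 9.96e-05). Of 4 tested lymphatic markers 2 fell and 1 rose, beside 8.90% and 5.01% of all tested genes. The rise was in PDPN, by 0.84 (adjusted p = 0.0228 by limma). PDPN also lay above Ctrl, by 0.96 (adjusted p = 0.00968), and both calls were lost on rescaling to TPM. HEYL, a Notch target of vascular smooth muscle, fell from 21.6 and 23.7 to 1.18, 1.8, 1.24 and 0.779 FPKM (log2 fold change -3.41 ± 0.29, adjusted p = 4.66e-06).

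Vasoactive genes moved both ways. AGT, which encodes angiotensinogen, the precursor of all angiotensins (chromosome 14, 59643030 to 59656835), rose from 2.43 and 2.19 to 64.9, 76.4, 77.7 and 79.7 FPKM (log2 fold change 4.51 ± 0.22, adjusted p = 7.63e-08). ACE, the enzyme that makes angiotensin II, rose from 0.861 and 1.03 to 17.7, 25.9, 20.6 and 17.8 FPKM (log2 fold change 3.45 ± 0.22, adjusted p = 5.61e-07). ENPEP and ANPEP, the aminopeptidases that trim angiotensins further, rose by 1.75 and 3.89. AGT, ACE and ENPEP were also above Ctrl, by 2.62, 1.35 and 1.57, whereas ANPEP was not (0.26 ± 0.45, adjusted p = 0.84). NOS3, the endothelial nitric oxide synthase, fell from 9.02 and 8.77 to 1.57, 2.32, 3.28 and 1.16 FPKM (log2 fold change -1.73 ± 0.26, adjusted p = 0.000571). Over the list 7 of 20 genes rose and 5 fell, beside 5.01% and 8.90% of all tested genes. Without TD-1 and TD-4, 5 rose and 3 fell. Rises and falls were both fewer without D0-1 or without D0-2. Of the 20, 2 genes, NPPB and NR3C2, passed the filter only through D0, with 3 falls among the other 18.

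Of 42 tested collagen and myofibroblast genes 13 were lower, 4 higher and 25 not called, beside 8.90% and 5.01% of all tested genes. The median was -0.75, and 10 were lower and 2 higher without TD-1 and TD-4. The falls numbered 8 and the rises 2 without D0-1 or without D0-2. COL8A1, a short-chain collagen of vessel walls, fell from 97 and 99.4 to 7.41, 8.16, 8.46 and 4 FPKM (log2 fold change -3.67 ± 0.25, adjusted p = 7.90e-07) and lay below Ctrl, at 37.1, 24, 32.3 and 25.3 FPKM. TGFB3, a fibrogenic growth factor, fell from 30.2 and 28.9 to 3.59, 3.83, 4.04 and 2.59 FPKM (log2 fold change -2.77 ± 0.18, adjusted p = 6.29e-07), with Ctrl between at 16.2, 16.6, 16 and 14.5 FPKM (-1.91 ± 0.15, adjusted p = 1.03e-05). CTHRC1, a secreted protein of activated fibroblasts, fell from 45.3 and 45.9 to 7.35, 2.21, 2.05 and 2.2 FPKM (log2 fold change -3.53 ± 0.46, adjusted p = 0.000174), where TD-1 stood apart from the other TD libraries. MFAP4, an elastic fibre protein, rose from 14.3 and 15 to 38.6, 42.2, 35.1 and 46 FPKM, above Ctrl by 1.2 ± 0.14, adjusted p = 0.000257. POSTN, the myofibroblast protein periostin, fell by 1.04, a call lost without either fresh library (adjusted p = 0.114 at most), and COL3A1 and VIM did not pass (log2 fold change -1.03 ± 0.33, adjusted p = 0.0555 and log2 fold change 0.71 ± 0.29, adjusted p = 0.139). Of 14 tested fibroblast markers 5 fell and 1 rose (3 and 0 without D0-1 or without D0-2), and their summed FPKM overlapped between D0 (6560 and 7160) and TD (5400 to 7130).

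Of 27 tested matrix proteases and their inhibitors 6 rose and 6 fell, and 7 rose and 4 fell without TD-1 and TD-4. The falls were 3 without D0-1 or without D0-2. SERPINE2, an inhibitor of thrombin and urokinase, fell from 90.01 and 95.3 to 12.6, 11.8, 10.6 and 13.1 FPKM (log2 fold change -2.85 ± 0.19, adjusted p = 6.48e-07) while Ctrl stood higher, at 91.8, 52.3, 80.5 and 76 FPKM (-2.52 ± 0.15, adjusted p = 1.30e-06). The plasminogen activator genes PLAT and PLAU fell too, with log2 fold changes of -2.32 and -1.89. MMP12, the macrophage elastase, rose from 0.125 and 0 to 12.9, 5.78, 12.7 and 14 FPKM (log2 fold change 3.47 ± 0.39, adjusted p = 5.36e-05). IGFBP4, which binds and sequesters insulin-like growth factors, fell from 308 and 300.3 to 129, 98.4, 92.9 and 99.7 FPKM (log2 fold change -1.54 ± 0.18, adjusted p = 9.79e-05), while in Ctrl it was 515, 457, 399.6 and 369 FPKM. IGFBP2, of the same family, did not pass against D0, with 421 and 378 FPKM in D0 and 467, 537, 530.4 and 413 FPKM in TD (log2 fold change 0.28 ± 0.24, adjusted p = 0.53), but Ctrl was higher, at 1924, 1818, 1912 and 1675 FPKM (-1.92 ± 0.20, adjusted p = 0.000121). IGFBP6 fell by 2.24, and of 14 tested genes of the insulin-like growth factor axis 4 fell and 0 rose, with 2 falls without D0-1 and 3 without D0-2.

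Of 38 tested cytokine and chemokine genes 10 rose and 3 fell, beside 5.01% and 8.90% of all tested genes, with a median of 0.75, and 7 rose without D0-1 or without D0-2, where 1 and 2 fell. The rises included IL1R2 and IL1RL1, the interleukin-33 receptor, which rose from 0.631 and 0.645 to 8.61, 10.5, 10.7 and 6.37 FPKM (log2 fold change 2.59 ± 0.28, adjusted p = 3.44e-05). PTX3, a secreted pattern-recognition protein, rose from 20.2 and 20.01 to 173, 128, 119 and 109.5 FPKM (log2 fold change 2.64 ± 0.21, adjusted p = 3.36e-06), against 12, 9.76, 15.4 and 13.1 FPKM in Ctrl (3.29 ± 0.17, adjusted p = 5.45e-07). TD stood above both other groups for PTX3, and Ctrl stood below D0. IL6 did not pass, with 11.9 and 9.43 FPKM in D0 and 12.6, 8.5, 2.27 and 4.3 FPKM in TD (log2 fold change -0.76 ± 0.44, adjusted p = 0.323), while Ctrl held 46, 42.9, 42.6 and 30.3 FPKM (-2.57 ± 0.36, adjusted p = 0.00138). IL11, a profibrotic cytokine of the IL6 family, was 22.6 and 22.9 FPKM in D0, 17.4, 13.4, 7.78 and 6.75 FPKM in TD and 160.1, 133, 104 and 101 FPKM in Ctrl. The fall of IL11 against D0 passed narrowly (log2 fold change -1.03 ± 0.30, adjusted p = 0.0361) and was lost in 6 alternatives, among them without D0-1 and without D0-2 (adjusted p up to 0.206), while its difference from Ctrl was -3.41 ± 0.25, adjusted p = 6.48e-06. CXCL14 followed IL6, near fresh in TD (75.8 to 119 FPKM) and higher in Ctrl (247 to 309.6 FPKM).

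**Figure D3:**
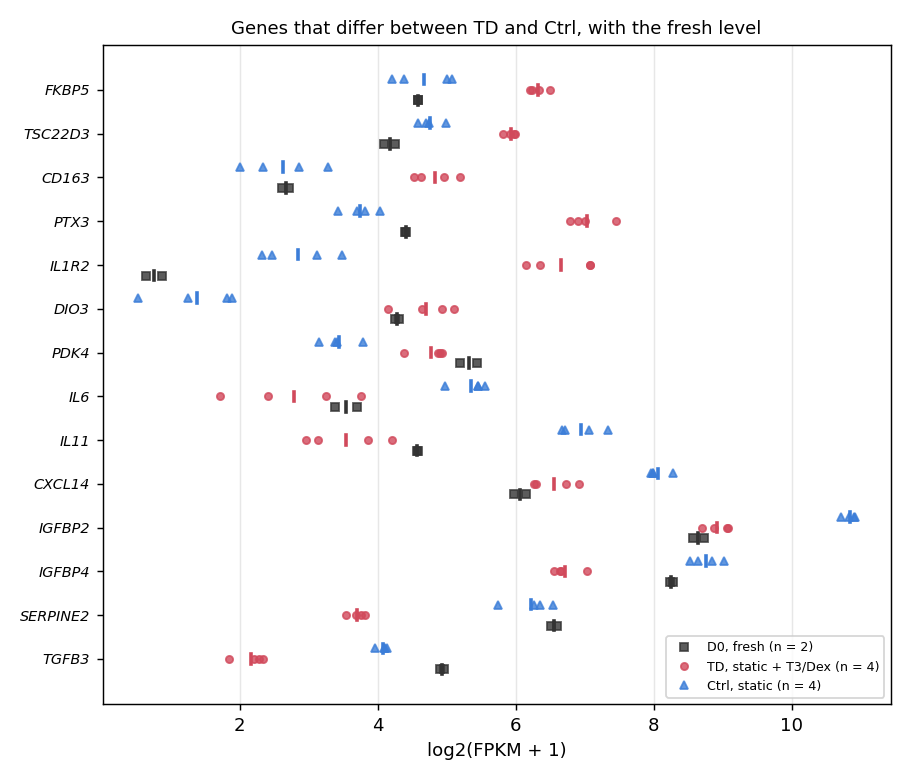
log2(FPKM + 1) (horizontal axis) of 14 genes (vertical axis) that passed the test between TD and Ctrl, 1 point per library and a bar at the group mean. TD lies above both other groups at FKBP5, TSC22D3, CD163, PTX3 and IL1R2, near D0 and apart from Ctrl at DIO3 and IGFBP2, and below both other groups at IGFBP4, SERPINE2 and TGFB3.

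Part of the macrophage markers rose. Of 20 tested, 8 were higher in TD and 0 lower, with a median of 0.56, and the count was 8 or 9 with any 1 library left out and 8 without TD-1 and TD-4. F13A1, coagulation factor XIII of resident macrophages, rose from 1.5 and 1.54 to 17.8, 22.9, 27.9 and 27.3 FPKM (log2 fold change 3.29 ± 0.25, adjusted p = 1.86e-06). MARCO, a scavenger receptor, rose from 2.47 and 1.73 to 27, 22.8, 19.1 and 24 FPKM (log2 fold change 2.97 ± 0.22, adjusted p = 1.45e-06). CD163, the haemoglobin scavenger receptor that glucocorticoids are known to raise, rose from 5.55 and 5.12 to 23.6, 30.01, 35.5 and 22 FPKM (log2 fold change 2.16 ± 0.31, adjusted p = 0.000408). CD163 in Ctrl was 4.06, 3.01, 6.25 and 8.69 FPKM and spanned the fresh level, and TD was higher by 2.20 ± 0.26, adjusted p = 0.000352. 5 of the 20 were above Ctrl. The summed macrophage markers were 746 and 841 FPKM in D0 and 826 to 1370 in TD, which overlap. Of 13 tested smooth muscle and pericyte markers 5 fell and 1 rose, and 3 fell and 0 rose without D0-1 or without D0-2, and 3 fell and 1 rose without TD-1 and TD-4. Of 5 Schwann cell and neuron markers 3 fell, 1 of which passed the filter only through D0, and 0 did so without D0-1 and 1 without D0-2. Lymphocyte markers (2 tested) had 0 calls by limma and 0 at an unadjusted p under 0.05, and the adipocyte list had 1 rise in 4, CIDEC. Of 13 tested complement and acute phase genes 6 rose and 1 fell, the fall in a gene that passed the filter only through D0, and 7 rose and 0 fell without TD-1 and TD-4. Among the rises were CFD, the adipsin gene, from 17.9 and 14.4 to 261, 187, 191 and 223 FPKM (log2 fold change 3.66 ± 0.26, adjusted p = 1.11e-06) and C7, a terminal complement component, from 5.48 and 3.92 to 57.2, 38.8, 38.1 and 32.8 FPKM (log2 fold change 2.89 ± 0.31, adjusted p = 3.90e-05).

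Interferon and antigen presentation genes were called in small numbers. ISG15, a ubiquitin-like protein induced by interferon, fell from 371 and 243 to 30.2, 21.9, 26.1 and 22.5 FPKM (log2 fold change -3.54 ± 0.28, adjusted p = 2.82e-06), the largest fall of its list, in which 5 of 29 tested genes fell and 1 rose, beside 8.90% and 5.01% of all tested genes. The falls numbered 1 without D0-1 or without D0-2, and 2 without TD-1 and TD-4. Of 13 tested antigen presentation genes 3 fell and 0 rose, with 1 fall without D0-1. SLA-DRA, a class II antigen-presenting chain of the pig, fell from 15.4 and 15.3 to 7.47, 6.24, 5.28 and 4.17 FPKM (log2 fold change -1.29 ± 0.20, adjusted p = 0.000578).

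Of 41 tested cell cycle genes 16 were lower in TD, 2 higher and 23 not called, beside 8.90% and 5.01% of all tested genes, with a median of -0.76. 2 of the 41 passed the filter only through D0, and among the other 39 there were 15 falls and 2 rises. The falls numbered 5 without D0-1, 4 without D0-2 and 14 without TD-1 and TD-4. TOP2A, the topoisomerase of dividing cells, fell from 17.3 and 19 to 6.28, 6.16, 4.95 and 4.76 FPKM (log2 fold change -1.56 ± 0.21, adjusted p = 0.000231), and KIF20A, a mitotic kinesin, from 16.8 and 18.2 to 5.35, 6.26, 4.81 and 7.65 FPKM (log2 fold change -1.41 ± 0.19, adjusted p = 0.000235). CDKN1A, the cyclin-dependent kinase inhibitor p21, rose from 72.5 and 71.2 to 347, 388, 379 and 390.2 FPKM (log2 fold change 2.37 ± 0.14, adjusted p = 3.79e-07). Ctrl held 4.03 to 5.16 FPKM of TOP2A and 442 to 474 FPKM of CDKN1A, and 0 of the 41 genes passed between TD and Ctrl by limma (12 at an unadjusted p under 0.05).

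Antioxidant and drug-metabolising genes rose with no fall. Of 30 tested 13 were higher and 0 lower, with a median of 0.59, and the count was 7 without D0-1, 6 without D0-2 and 9 without TD-1 and TD-4. GPX1, the cytosolic glutathione peroxidase, rose from 18 and 16.2 to 87.4, 69.2, 70.2 and 102 FPKM (log2 fold change 2.18 ± 0.25, adjusted p = 7.13e-05), and HMOX1, which degrades haem, from 45.1 and 47.2 to 123, 152, 155 and 208 FPKM (log2 fold change 1.74 ± 0.22, adjusted p = 0.000134). EPHX1, a microsomal epoxide hydrolase, rose by 1.40. Of the 30, 5 were higher in TD than in Ctrl, and of these GPX1 and the catalase gene CAT lost that call without TD-1 and TD-4. Of 31 tested genes of sterol and fatty acid synthesis 6 were lower and 0 higher, with 2 lower without D0-1, 3 without D0-2 and 8 without TD-1 and TD-4. FADS2, a fatty acid desaturase, fell from 10.9 and 10.04 to 3.36, 3.8, 3.01 and 2.85 FPKM (log2 fold change -1.43 ± 0.17, adjusted p = 0.000101).

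**Figure D4:**
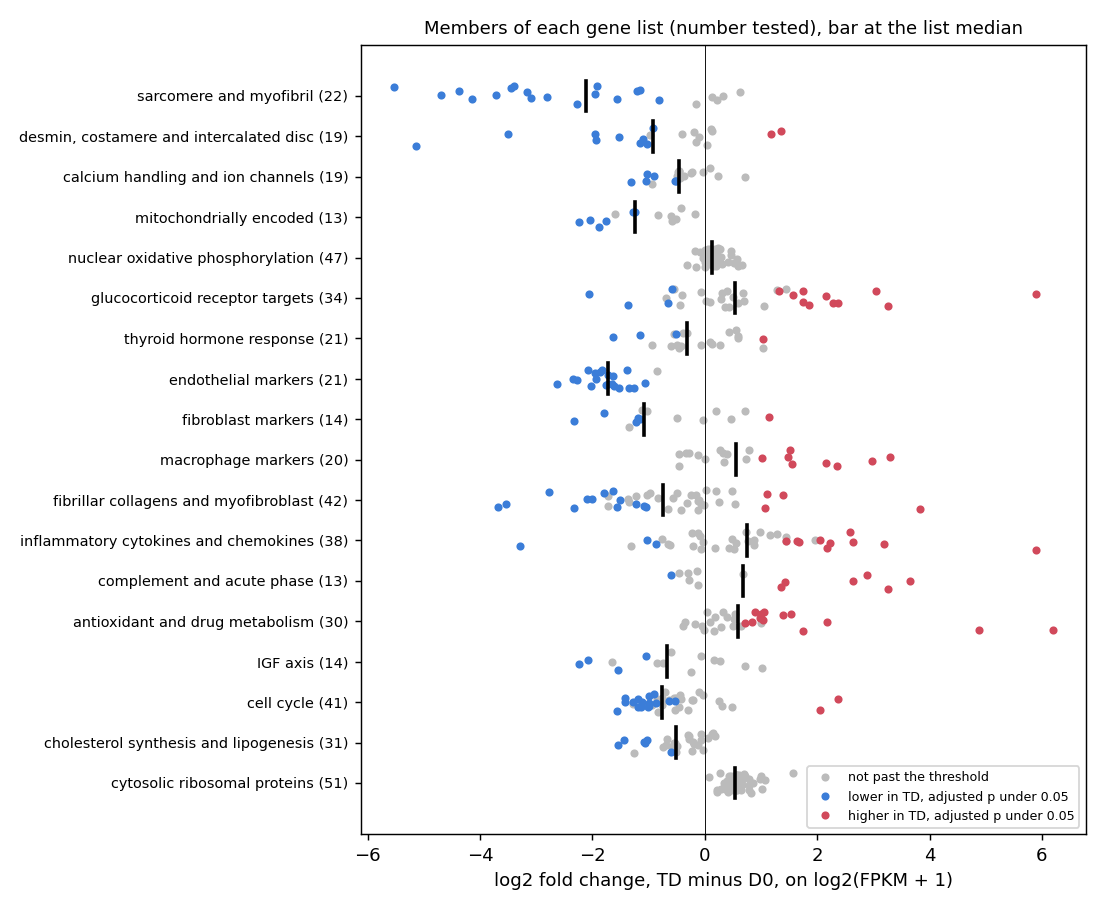
log2 fold change of TD minus D0 (horizontal axis) for every tested member of 18 gene lists (vertical axis, number tested in brackets), 1 point per gene and a bar at the list median, red and blue for genes past the threshold. Endothelial markers sit at a median of -1.73 and sarcomere genes at -2.11, while macrophage markers and glucocorticoid targets sit at 0.56 and 0.54.

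Seen from static culture alone, TD and Ctrl differed at 401 of 11527 genes (3.48%), 145 higher in TD and 256 lower, and at 174 without TD-1 and TD-4. Both contrasts use the same TD libraries, so their calls are not independent of each other. IGFBP2, IL6 and DIO3 passed against Ctrl and not against D0.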

How the data were processed

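RNA-seq was made from pig left ventricular slices in 5 groups (D0, Ctrl, TD, MC and MT), grouped by sample title, since the treatment entry of the labels names the hormones for every sample. The authors demultiplexed reads with CASAVA and aligned them to Sscrofa11.1 with HISAT2 (no version is given in the sources used), and deposited FPKM values for 13644 genes, 11135 of them with a name in the table and 594 named here from the reference. The labels and the study's methods name different library kits, and the labels' extraction text names human stem cell-derived cardiomyocytes. Neither point was settled. Counts were not used here, so the study's count test was not run.

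Here log2(FPKM + 1) was tested with limma 3.58.1 in R 4.3.3 (empirical Bayes with a trend, Benjamini-Hochberg, threshold 0.05) for genes of at least 1 FPKM in at least 2 of 14 libraries, with 1 mean per group over all libraries. Values after ± are standard errors. Read totals were not used here. Relative depth, read from the ratio that low FPKM values most often take, was 0.91 in D0-2 and 0.8 to 1.2 in TD, with D0-1 as 1, and limits low genes most. Named genes were the 15 largest rises and falls with groups that do not overlap, up to 4 rises and 4 falls per list, list members that differ from Ctrl, and hormone list members. Members and lists were chosen with earlier results of these data known. Promoter windows are the 250 bases before the outermost RefSeq start of a coding gene in Sscrofa11.1, the build the files use. Alternatives (their effect is given at the end) were other pseudocounts, filters, scalings, sample sets, weights, a replicate block and leaving out each library.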

Additional observations from a re-analysis of the deposited data

Results flagged for a closer look

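Among the 4 TD libraries, 1 value stood apart from the other 3 in 3 of 48 quantities examined, by a gap beyond Dixon's critical share of the whole range at the 95% level. Chance gives this in about 1 in 20 groups. For MMP12 the low library was TD-2, with 12.9, 5.78, 12.7 and 14 FPKM in TD-1 to TD-4 and a gap of 0.843 of the range. For CTHRC1 the high library was TD-1, with 7.35, 2.21, 2.05 and 2.2 FPKM and a gap of 0.97. For the summed lymphocyte markers the low library gave 17.2 FPKM against 22.8 at the highest, a gap of 0.857.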

How the results depend on the processing

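The number of genes that differed between TD and D0, 1604, moved to 3984 with limma array weights and to 1019 with the replicate block, and ranged from 677 to 1621 with 1 library left out, where the lowest were without D0-1 (677) and D0-2 (727). The number between TD and Ctrl, 401, moved to 698 in a fit of D0, Ctrl and TD, to 1080 with array weights and to 174 without TD-1 and TD-4, and ranged from 243 (without Ctrl-1) to 357 with 1 library left out, with 259 without TD-4 or without Ctrl-3. The cause was not tested. Rescaling to TPM moved the median of TD against Ctrl over all genes to -0.16 from -0.01. Of 183 named genes called against D0, 127 were called under every alternative, 56 were lost under at least 1 and 0 changed direction. Of 85 called against Ctrl the numbers were 48, 37 and 0. Of 21 lists with a median of at least 0.5 in size, 20 kept its sign, and cytosolic ribosomal proteins (0.53) went to -0.06 without TD-1 and TD-4. Whether replicate numbers pair the libraries was not settled. Same-numbered D0 and TD libraries deviated from their group means with r = 0.0034 and -0.064. The deviations of 2 fresh libraries mirror each other, so these values cannot test pairing. Same-numbered Ctrl and TD libraries deviated with r between -0.5 and 0.41, and not every library correlated best with its own number. The TD deviations also hold the length split. With 2 fresh libraries and unknown depth, genes near 1 FPKM carry the least certain values.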

Other observations

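Of 33 tested genes of the unfolded protein and integrated stress response 7 were lower in TD than in D0 and 1 was higher, and 3 were lower without D0-1 or without D0-2. HSP90B1, the chaperone of the endoplasmic reticulum, stood at 279 and 265 FPKM in D0 and 164, 131, 139 and 107 FPKM in TD (log2 fold change -1.02 ± 0.19, adjusted p = 0.00269), and PDIA4, a disulphide isomerase of the same compartment, at 152 and 147 and 78.5, 87.1, 77.5 and 65.7 FPKM (log2 fold change -0.95 ± 0.17, adjusted p = 0.00224). Ctrl held 115 to 172 FPKM of HSP90B1, overlapping TD. Of 21 hypoxia genes 4 rose and 1 fell, with 2 and 0 without D0-1, without D0-2 or without TD-1 and TD-4, and of 25 lysosome genes 3 rose and 1, which passed the filter only through D0, fell. Of 51 cytosolic ribosomal protein genes 0 were called by limma (1 at an unadjusted p under 0.05). Among 24 immediate early genes 2 rose and 3 fell, beside 5.01% and 8.90% of all tested genes, and 4 rose and 2 fell without TD-1 and TD-4. KLF4, a Kruppel-like factor, rose from 2.58 and 2.67 to 12.7, 17.1, 13.4 and 9.43 FPKM (log2 fold change 1.94 ± 0.29, adjusted p = 0.000459), whereas EGR2, a zinc finger factor induced by growth factors, fell from 17.2 and 19.2 to 0.887, 0.974, 1.35 and 1.18 FPKM (log2 fold change -3.20 ± 0.39, adjusted p = 0.000109), with Ctrl between at 4.09, 3.94, 8.57 and 7.77 FPKM.

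ALDH1A2, which makes retinoic acid in the epicardium, fell from 10.4 and 11.7 to 3.25, 2.88, 2.57 and 2.44 FPKM (log2 fold change -1.67 ± 0.21, adjusted p = 0.000158), and WT1, an epicardial transcription factor, from 5.18 and 5.21 to 1.07, 2.09, 1.81 and 1.76 FPKM (log2 fold change -1.22 ± 0.22, adjusted p = 0.00221), the 2 calls among 5 tested epicardial markers. KRT7, a keratin of simple epithelia and the 1 tested gene of its list, rose from 0.911 and 0.484 to 6.72, 6.15, 5.15 and 8.55 FPKM (log2 fold change 2.16 ± 0.26, adjusted p = 0.000111) and was 1.21 to 1.72 FPKM in Ctrl. Of 16 clock genes 1 fell against D0, beside 8.90% of all tested genes. BHLHE41, a clock repressor, was 12.1 and 11 FPKM in D0, 10.2, 17, 20.6 and 16.1 in TD and 32, 29.8, 33.7 and 33 in Ctrl, so that TD overlapped D0 and lay below Ctrl (-1.001 ± 0.17, adjusted p = 0.00439). OPCML, a neural cell adhesion molecule that passed the filter only through D0, fell from 11.5 and 12.5 to 0.116, 0.0995, 0.0326 and 0.0612 FPKM (log2 fold change -3.59 ± 0.20, adjusted p = 1.97e-07) and stood at 0.105 to 0.428 FPKM in Ctrl. NREP, a small protein linked to TGF-beta signalling, fell from 75.9 and 78.6 to 8.88, 6.06, 5.02 and 3.78 FPKM (log2 fold change -3.55 ± 0.35, adjusted p = 1.86e-05).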
